A study of Mus musculus with 4 samples.

Results

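Peaks that lie entirely in the 3' untranslated region (3' UTR) of an mRNA are described here, from sequencing of the RNA that was immunoprecipitated with IGF2BP2 from mouse macrophages. The cells were BMDMs, which are derived in culture from bone marrow. A peak was a member when the authors' region annotation named 3' UTR as its only region, with a share of 1.0. Of 15511 peaks in the list of the first immunoprecipitation library (IP 1), 1283 met that rule (8.27%), and of 22570 peaks in the list of the other (IP 2), 1651 did (7.32%). Together they make 2934 of 38081 peaks (7.70%).

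The series has 4 libraries, 2 IGF2BP2 immunoprecipitates and 2 inputs, all from BMDMs, and the inputs were not analysed here. The labels give no strain, age, genotype or stimulus for any library, and nothing in them ties a replicate to an animal or culture of its own. On the antibody they conflict: an anti-IGF2BP2 antibody is listed for each immunoprecipitate, while the protocol describes beads that carried a monoclonal Flag antibody. Each peak has a count of tags, the files' word for the sequences counted in a peak, whose lowest value was 3, and no input value, fold enrichment or expression value. A peak with many tags can therefore lie in an mRNA that was bound or in one that was abundant, and these cannot be told apart; library depth is unknown.

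As background, a 3' UTR is the stretch of an mRNA between the stop codon and the poly(A) tail. It carries the sites of microRNAs and of many proteins that set how long an mRNA lasts, where it goes and how often it is translated. IGF2BP2 belongs to a family of cytoplasmic proteins with RNA recognition motifs and KH domains that bind and stabilise mRNAs, and it has been described as a reader of N6-methyladenosine (m6A), a methyl mark on adenosines that is abundant near stop codons and in 3' UTRs. The core of the m6A consensus is GGAC, in which the A carries the mark, and CAU followed by A, C or U is a motif described for IGF2BP family members.

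The sequences below are short stretches from some of the strongest recurring 3' UTR peaks, at base resolution. The first set comes from the 20 strongest pairs of overlapping peaks, taken as 1 pair for each gene in the order of their mean rank by tags. In 17 of these 20 pairs the stretch covered by both peaks held GGAC, and in Gnai2, Ncbp3 and Soat1 it did not. In 5 of the 17 a GGAC lay within 60 nt of the IP 2 summit, the position of highest coverage. Only these 5 are shown, picked for that nearness. In the rest of the 17 it lay farther away, up to 1099 nt in Edem1. The overlaps ran from 65 nt in Ncbp3 to 1323 nt in Tet3. Outside members, the same 3' UTRs held GGAC 2.92 times per kb for IP 1 and 2.83 for IP 2. A long stretch can therefore hold GGAC through its length alone. Neither the 17 nor the 5 was set against a base rate, so these counts do not set the leading pairs apart from other 3' UTR sequence. The 5 sequences are written 5' to 3' as DNA, from GENCODE transcripts on GRCm38, with GGAC in capitals.
Fnip2, chr3:79459156-79459184, minus strand: agcagctactgttGGACataggatgtgga
Plek, chr11:16973320-16973348, minus strand: gatcagagacaagGGACtcttgggaagaa
Slc6a6, chr6:91758096-91758124, plus strand: gtcctgcctctcgGGACggggcaatgctc
Tnfrsf1b, chr4:145214510-145214538, minus strand: aatgaattggaaaGGACtgttcctgggtg
Tmbim6, chr15:99409744-99409772, plus strand: ctgcgagccctcgGGACatgactgagttc
The GGAC began 39 nt from the IP 2 summit in Fnip2, 30 nt in Plek, 53 nt in Slc6a6, 37 nt in Tnfrsf1b and 28 nt in Tmbim6. In Slc6a6 the GGAC is followed by G, which the wider m6A consensus given below leaves out. A match to these letters does not show that the adenosine was methylated or that IGF2BP2 was bound there.

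The second set holds the 29 nt around the IP 2 summit in the 5 leading pairs whose summits in IP 1 and IP 2 were at most 10 nt apart, with the summit base in capitals.
Mcl1, chr3:95662823-95662851, plus strand: ttggagagcgcagtGgctgggcaaggggc
Dnmt3a, chr12:3910204-3910232, plus strand: cggcaccagtcaagTcagccctcagcccc
Ncbp3, chr11:73083061-73083089, plus strand: ataggcttacaaccAaaaatataagagtt
Tspan14, chr14:40906611-40906639, minus strand: tgttataattttctAaataattctctata
Slc6a6, chr6:91758148-91758176, plus strand: agcccagttcctctCtccaagatgcagac
The summits were 1 nt apart in Ncbp3, 3 nt in Mcl1, and 10 nt in Dnmt3a, Tspan14 and Slc6a6. The 5 stretches have no common core: that of Mcl1 is rich in G, that of Tspan14 in A and T. None of them holds GGAC.

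The 3' UTR peaks were wider than coding peaks and mostly weak, as were peaks of all regions, whose median tag count was 7 in IP 1 and 8 in IP 2. The median tag count of 3' UTR peaks was 8 in IP 1 (quartiles 6 and 12, highest 177) and 9 in IP 2 (quartiles 6 and 15, highest 191). They held 13889 tags in 962 genes in IP 1, 7.33% of the tags of that list, and 21628 tags in 1187 genes in IP 2, 6.67%. Only 13 members in IP 1 and 39 in IP 2 had 50 or more tags. The median length was 252 nt and 271 nt, beside 121 nt and 124 nt for peaks wholly in coding sequence. Per kilobase of peak the order turned: the median 3' UTR peak had 31.7 and 34.3 tags per kb, and the median coding peak 64.9 and 72.3. Other peaks were closer to members. Peaks across the stop codon had medians of 236.5 nt and 262.5 nt and of 37.7 and 42.1 tags per kb. Over all peaks the medians were 195 nt and 215 nt, with 36.8 and 39.2 tags per kb.

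Peaks of 10 or more tags were more frequent in 3' UTRs than among coding peaks, and more frequent still across the stop codon (46.6% in IP 1, 58.8% in IP 2). Such peaks made up 520 of 1283 members in IP 1 (40.5%, exact 95% interval 37.8 to 43.3) against 32.9% of coding peaks, an odds ratio of 1.39 (two-sided Fisher's exact test, Benjamini-Hochberg adjusted over 4 tests, p = 2.32e-06). In IP 2 they made up 797 of 1651 (48.3%, 45.8 to 50.7) against 43.9%, an odds ratio of 1.19 (Fisher's exact test, adjusted p = 0.00229). With a maximum height of 10 or more in place of tags, which does not add up along a wide peak, the odds ratio was 0.959 in IP 1 and 0.983 in IP 2, and neither Fisher's exact test passed (adjusted p = 0.603 and 0.790). Peaks of 1 list share a library, so these tests and intervals cover counting error only.

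At the edge of the rule stood peaks that touched a 3' UTR without lying wholly in it, 622 in IP 1 and 969 in IP 2. Most of these crossed the stop codon, with coding sequence and 3' UTR as their only regions: 464 in IP 1 and 681 in IP 2. Just outside the rule were 57 and 94 peaks with 90% or more, but not all, of their length in 3' UTR; their median tag count was 11 and 16, and their median length 299 nt and 372 nt. These were not counted as members.

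Whether a 3' UTR peak was found again was asked by overlap with any peak of the other list, by at least 1 nt on the same strand. Of the IP 1 members, 483 of 1283 were found again in IP 2 (37.6%, exact 95% interval 35.0 to 40.4). Of the IP 2 members, 446 of 1651 were found again in IP 1, the shorter list (27.0%, 24.9 to 29.2). Coding peaks were found again more often in IP 1, 2010 of 4483 or 44.8%, with an odds ratio for 3' UTR against coding of 0.743 (two-sided Fisher's exact test, adjusted p = 9.59e-06). In IP 2 the coding share was 28.9%, the odds ratio 0.911, and the difference did not pass the same exact test (adjusted p = 0.139). Peaks across the stop codon were found again in 47.4% and 35.9% of cases.

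The partner of a 3' UTR peak was usually another 3' UTR peak. When only a partner of the same region class counted, 423 of 1283 IP 1 members (33.0%) and 422 of 1651 IP 2 members (25.6%) kept one, and the comparison with coding peaks turned round: the odds ratio was 1.22 in IP 1 and 1.24 in IP 2 (Fisher's exact test, adjusted p = 0.00478 and 0.00146). Of the coding peaks found again, 1287 of 2010 in IP 1 and 1282 of 1705 in IP 2 kept a partner wholly in coding sequence. The sign of the difference thus depended on what counted as a partner.

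The chance of being found again rose with tags in both classes and both lists. Of IP 1 members with 3 to 5 tags, 10.97% had a partner, against 33.6% with 6 to 9 tags, 54.9% with 10 to 19 and 62.8% with 20 or more. In IP 2 the same steps gave 5.22%, 14.8%, 32.2% and 65.1%. In IP 1 the coding shares, from 17.6% to 81.0%, were above those of 3' UTR peaks in each band. In IP 2 the coding shares were also the higher ones in each band: 7.46%, 18.8%, 38.8% and 67.1%. There the exact 95% intervals were apart for 10 to 19 tags, 28.2 to 36.4 for 3' UTR peaks and 36.6 to 41.0 for coding peaks, and overlapped for 20 or more, 59.0 to 70.7 and 63.4 to 70.6. Within each band 3' UTR peaks were the wider, which gives them more bases for an overlap of 1 nt. Their median lengths in IP 1 ran from 188 nt to 555 nt, against 103 nt to 160 nt for coding peaks. The effect of width on these shares was not tested.

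**Figure D1:**
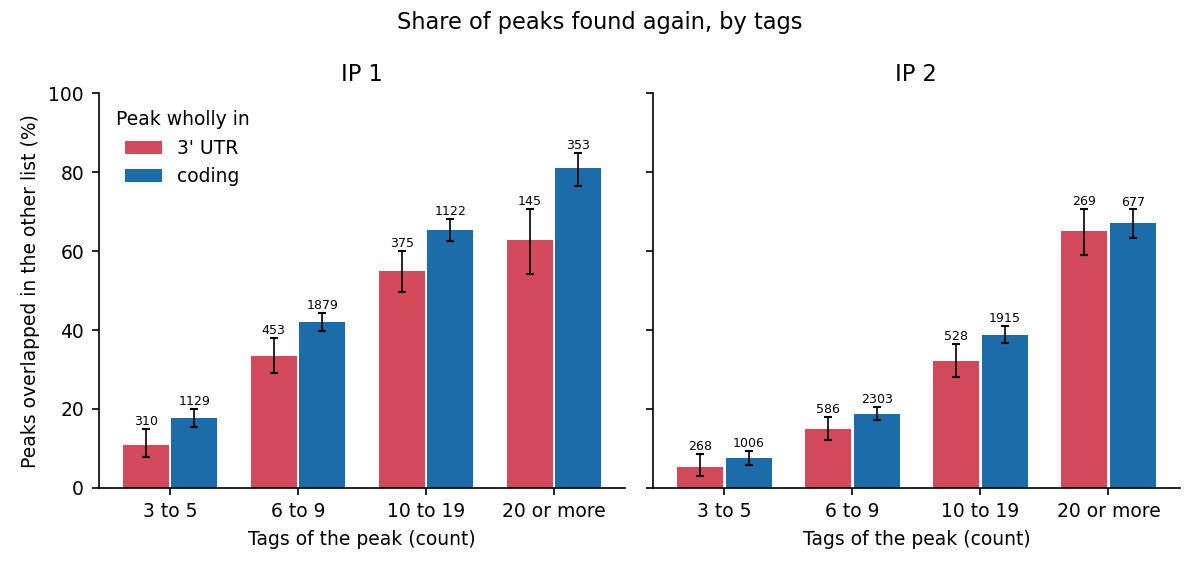
Share of peaks overlapped by a peak of the other list (y axis, %) by the peak's tag count (x axis), for IP 1 (left) and IP 2 (right); red bars are peaks wholly in 3' UTR, blue bars peaks wholly in coding sequence, lines are exact 95% intervals, and the number of peaks stands above each bar. The 3' UTR bars climb from 10.97% to 62.8% in IP 1 and from 5.22% to 65.1% in IP 2.

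Where a member overlapped a member of the other list, the tags could be compared pair by pair. There were 446 such pairs in 336 genes, with a median of 10 tags in IP 1 and 16 in IP 2. The IP 2 peak had more tags in 71.7% of pairs, and the median ratio of IP 2 to IP 1 tags was 1.40 (quartiles 1 and 2.10). Across the pairs, which are not independent of each other and share their 2 libraries, Spearman's correlation was 0.584 and Pearson's r of log2 tags 0.609; for 1298 coding pairs they were 0.684 and 0.744. The summits lay a median of 64 nt apart, and 190 pairs (42.6%) had them within 50 nt.

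Some pairs joined peaks of very different length. Edem1, which encodes a lectin-like protein that sends misfolded glycoproteins to degradation from the endoplasmic reticulum, had in IP 2 a single peak of 98 tags and 1886 nt. Over the same stretch IP 1 held 3 separate peaks of 23, 10 and 9 tags. Arrb1, for beta-arrestin, had an IP 2 peak of 84 tags and 1758 nt over IP 1 peaks of 12 and 10 tags. Mcl1 was divided the other way, with 1 IP 1 peak of 80 tags and 1423 nt over 2 IP 2 peaks of 72 and 32 tags. Lat2, an adaptor of immune receptor signalling, had 60 tags over 707 nt in IP 1 and 13 tags over 172 nt in IP 2; it and Arrb1 were picked out after their values were seen.

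**Figure D2:**
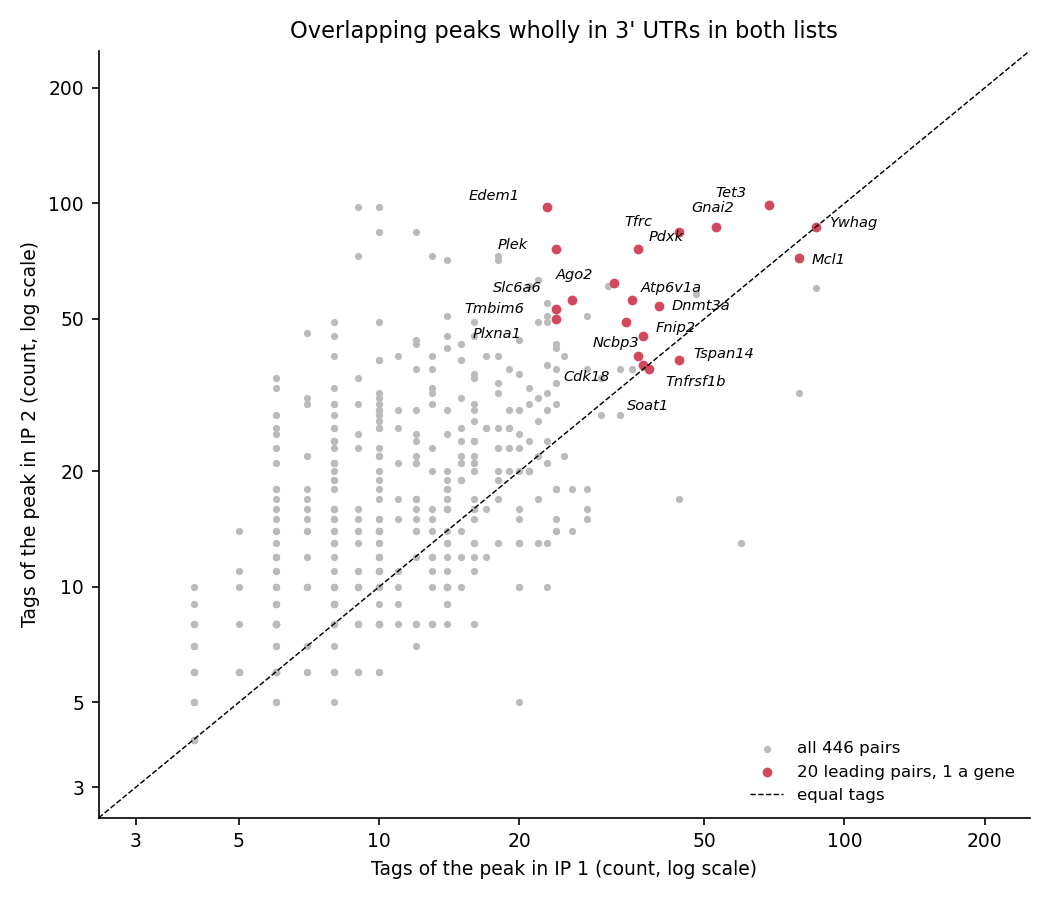
Tags of each of the 446 overlapping pairs in IP 1 (x axis) and IP 2 (y axis), both on log scales, with the 20 leading pairs in red and the line of equal tags dashed. Most points (71.7%) lie above the line, and in IP 1 the leading pairs run from Edem1, with 23 tags, to Ywhag, with 87.

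The first 4 of the 20 leading pairs, by mean rank, were those of Tet3, Ywhag, Gnai2 and Mcl1. Tet3, an enzyme that oxidises 5-methylcytosine, had 69 tags in IP 1 (chr6:83363759-83365081) and 99 in IP 2 (chr6:83363705-83365165), in exon 11 of 11. Its midpoints lay 3622 nt and 3607 nt past the stop codon of a 5669 nt 3' UTR. Ywhag, a phosphoserine-binding adaptor of the 14-3-3 family, had 87 tags in each list (chr5:135908878-135910234 and chr5:135908485-135909647), in exon 2 of 2. Although their tags matched, these peaks were shifted, with summits 496 nt apart.

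Gnai2, the alpha subunit of an inhibitory G protein, had 53 and 87 tags, and its peaks had nearly the same ends (chr9:107614200-107615098 and chr9:107614198-107615098). They covered most of a 3' UTR of 997 nt. Mcl1, a short-lived survival protein of the BCL2 family, had 80 and 72 tags in a 3' UTR of 2353 nt. Dnmt3a, a de novo DNA methyltransferase, had 40 and 54 tags at chr12:3910022-3910355 and chr12:3909988-3910349, and its summit sequence is shown above. 

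Tfrc encodes the transferrin receptor, which takes up iron, and its 3' UTR is known for iron-responsive elements that stabilise the mRNA. Its leading pair had 44 and 84 tags at chr16:32632390-32632783 and chr16:32632274-32632788, close to the 3' end, with midpoints 2250 nt and 2195 nt into 2458 nt. A pair in the middle of the UTR, at 933 to 1132 nt in IP 1 and 871 to 1200 nt in IP 2, had 15 and 31 tags. Another IP 1 peak, of 43 tags, at 222 to 688 nt, had no partner wholly in the 3' UTR.

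The other leading pairs covered several functions. In metabolism and transport stood Pdxk (pyridoxal kinase, 36 and 76 tags), Atp6v1a (catalytic subunit of the V-ATPase proton pump, 35 and 56), Slc6a6 (taurine transporter, 26 and 56), Soat1 (the enzyme that esterifies cholesterol for storage, 37 and 38) and Fnip2 (a folliculin-interacting protein, 37 and 45). In signalling and at the membrane stood Plek (pleckstrin, a protein kinase C substrate of blood cells, 24 and 76), Tnfrsf1b (a TNF receptor, 38 and 37), Plxna1 (a semaphorin receptor, 24 and 50), Tspan14 (a tetraspanin, 44 and 39) and Cdk18 (a cyclin-dependent kinase, 36 and 40). Tmbim6, an endoplasmic reticulum protein that limits cell death, had 24 and 53 tags, and Edem1 23 and 98. Ago2, the microRNA-guided endonuclease, had 32 and 62, and Ncbp3, a cap-binding protein, 34 and 49.

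Pdxk and Ncbp3 need a closer reading. The Pdxk 3' UTR lies opposite an exon of 4921516A02Rik on the other strand, which also takes in the 31 nt at the summits of the leading pair. Its tags are given to Pdxk by the strand of the peak alone. The Ncbp3 peaks had identical ends in both lists (chr11:73083058-73083122, 65 nt), and every tag covered the highest position: 34 of 34 and 49 of 49. Peaks of 10 or more tags in which the height equalled the tag count made up 69 members in IP 1 (5.38%) and 119 in IP 2 (7.21%), and among all 446 pairs 4 had both ends within 5 nt: Gnai2, Ncbp3, Cpd and Atp5e. Whether such stacks hold copies of single molecules was not tested.

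Most genes had a single 3' UTR peak: 752 of 962 in IP 1 (78.2%) and 906 of 1187 in IP 2 (76.3%). Genes with 3 or more numbered 67 and 107. Ago2 had the most over both lists, 6 in IP 1 with 130 tags and 11 in IP 2 with 441 tags, spread along a 3' UTR of 11064 nt. They made up 87.8% and 95.04% of all its tags. The strongest IP 2 peak of Ago2, 97 tags at 4847 to 6114 nt past the stop codon, had no IP 1 partner, and from 2270 to 6285 nt IP 1 had no member at all. On either side of that stretch the lists overlapped, in 5 of the 6 IP 1 members.

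Cdk6, a cyclin-dependent kinase of the G1 phase, equalled Ago2 in number, with 8 members in IP 1 (162 tags) and 9 in IP 2 (173 tags) along 10217 nt. Of these, 5 in each list had a partner. Next came 5 genes tied at 9 members: Soat1 with 6 and 3, Atl3 with 2 and 7, Gna13 with 5 and 4, Lpp with 6 and 3, and Cpd with 4 and 5. Gna13, the alpha subunit of a G protein, had 85.2% of its tags in the 3' UTR in IP 1 and all of them in IP 2. Atl3 (atlastin, a shaper of the endoplasmic reticulum) had 19 and 78 tags in its members, Lpp (a LIM-domain protein of focal adhesions) 64 and 46, and Cpd (carboxypeptidase D) 25 and 39.

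**Figure D3:**
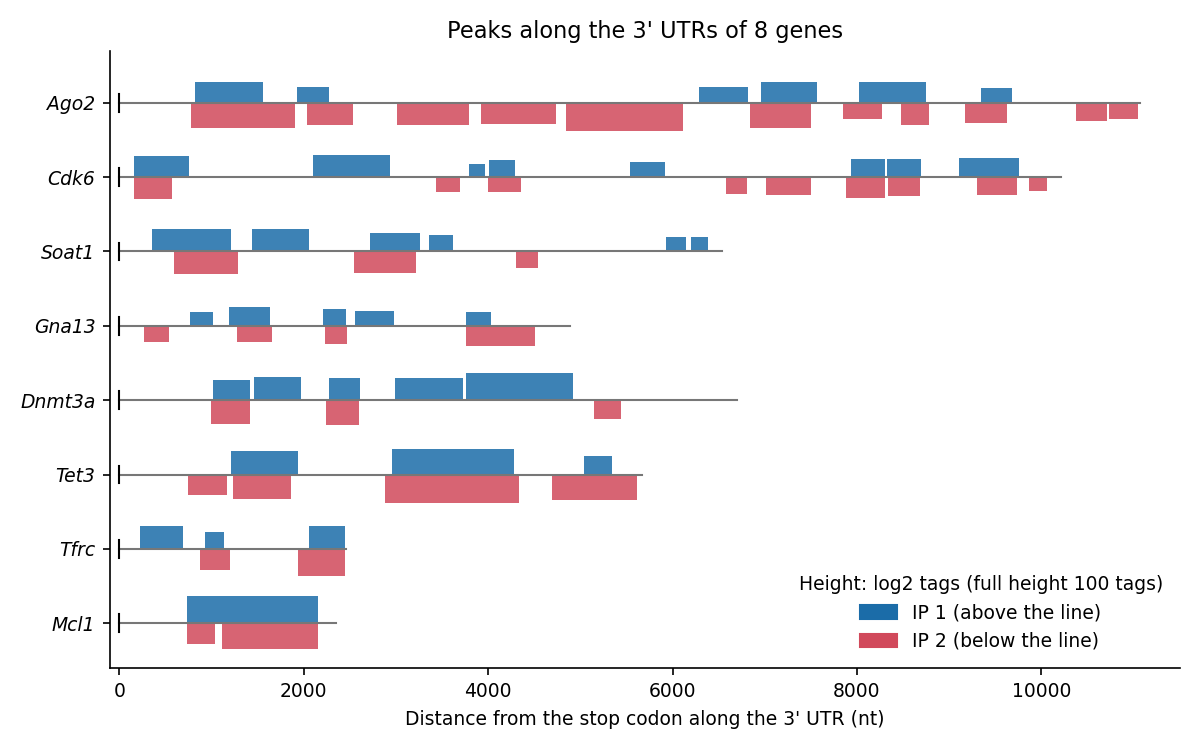
Members along the 3' UTRs of 8 genes, drawn as grey lines from the stop codon (black tick) to the 3' end, with distance in nt on the x axis; blue boxes above the line are IP 1 peaks, red boxes below it IP 2 peaks, and box height follows log2 tags. Tet3 has 3 boxes of IP 1, each over a box of IP 2, and Mcl1 has 1 long IP 1 box over 2 of IP 2. The stretch of Ago2 from 2270 to 6285 nt holds 3 whole IP 2 members and part of another, and no IP 1 member. The 8 genes were chosen after their values were seen.

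For some genes the 3' UTR was nearly the whole signal. Of 1355 genes with 20 or more tags in each list, 17 had at least 80% of them in members in both lists, while 819 had no member in either list. The 17 were Ago2, Sft2d2, Dcaf7, Uhmk1, Gna13, Cds2, Clcn5, Tmbim6, Ncbp3, Foxk1, Fam168b, Mob1a, Ptbp3, Cd93, Dnajc5, Zfp36 and Nhlrc3. Tmbim6, Ncbp3, Zfp36, Nhlrc3 and Cd93 had a single peak in each list, the member itself. The members of Cd93, a receptor of myeloid and endothelial cells, had 23 and 32 tags and did not overlap. Cds2 (a synthase of CDP-diacylglycerol) had 99 and 60 member tags, Dcaf7 64 and 89, and Sft2d2 24 and 90.

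Seen over genes, 336 of the 7214 with a sense peak in either list (4.66%) had overlapping members in IP 1 and IP 2. A member in each list, at any place in the 3' UTR, was held by 490 genes, 50.9% of those with a member in IP 1 and 41.3% of those in IP 2. Members were the only peaks of the gene in 359 genes in IP 1 and 366 in IP 2, and in both lists for 75. Long 3' UTRs were hit more often. The share of genes with overlapping members was 0.712% where the 3' UTR was under 500 nt, 2.17% from 500 nt to under 1000, 5.06% from 1000 nt to under 2000, 8.51% from 2000 nt to under 4000 and 12.7% from 4000 nt. The median 3' UTR had 2378 nt in genes with overlapping members, 962 nt in genes with a peak but no member, and 849 nt over all 21022 protein-coding genes.

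The lists of functions below were counted against that 4.66%, and a longer 3' UTR goes with a higher share, so the median 3' UTR length of the genes with a peak is given beside each count. Proteins that bind 3' UTRs or poly(A) tails had overlapping members in 7 of 35 genes with a peak (20%, median 3' UTR 2288 nt): Ago2, Zfp36, Celf1, Ptbp3, Qk, Ago1 and Celf2. Tnrc6b and Ago3, further parts of the microRNA machinery, had members in both lists that did not overlap, with 6 and 25 tags and with 8 and 12. Zfp36, tristetraprolin, which binds AU-rich elements and speeds mRNA decay, had 1 peak of 23 tags in IP 1 and 1 of 24 in IP 2. Ptbp3, a polypyrimidine tract-binding protein, had 37 and 34 tags in 4 and 3 members, and Celf1, which binds GU-rich elements, 19 and 93 tags in 2 and 5.

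Rab GTPases, the switches of vesicle traffic, had overlapping members in 5 of 22 genes (22.7%, median 3' UTR 2038 nt). They were Rab8b (strongest members 16 and 32 tags), Rab7 of late endosomes (26 and 18), Rab31 (13 and 30), Rab1a (13 and 14) and Rab6a (5 and 6). Actin and adhesion genes had them in 3 of 27 (11.1%, median 3' UTR 993 nt): Coro1c, a coronin (35 and 37 tags), Lcp1, the leukocyte plastin (33 and 37), and Msn, moesin (24 and 14). Msn had 320 and 599 tags in all its peaks, so its 3' UTR held 7.50% and 2.34% of them. Lcp1 had 319 and 420 tags in all, of which its members held 14.4% and 18.3%. Ahnak, Plec and Myh9 each had a member of 40 tags or more, 78, 57 and 40, in 1 list only.

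Organelle genes gave a few strong pairs. In the V-ATPase list 2 of 15 genes had overlapping members (13.3%, median 715 nt), Atp6v1a and the accessory subunit Atp6ap2 (18 and 34 tags). In the lysosomal list 2 of 28 did (7.14%, median 3' UTR 712.5 nt): Lipa, lysosomal acid lipase (16 and 36), and Lamp2, a lysosomal membrane protein (19 and 16). Npc1, which moves cholesterol out of lysosomes, had 226 and 422 tags over all its peaks and only 1 member, of 8 tags in IP 1. Iron genes had 1 of 13 with overlapping members (7.69%, median 671 nt), Tfrc.

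The study's title names TSC1 and PPAR gamma. Neither Tsc1 nor Pparg had a member in either list, nor a peak that the authors' annotation placed even in part in a 3' UTR. Tsc1 had 1 sense peak in IP 1 and 3 in IP 2 with a 3' UTR of 3994 nt, and Pparg 3 and 10 with one of 204 nt. Igf2bp2 itself had no sense peak in IP 1 and 3 in IP 2, none of them in its 3' UTR. Among 26 genes of the TSC complex, mTORC1 and its nutrient sensors with a peak, 1 had overlapping members (3.85%, median 1517.5 nt): Tfe3, a transcription factor of lysosome genes that mTORC1 holds in the cytoplasm, whose only peaks were members of 24 and 18 tags. Pik3cd and Pik3r1, subunits of phosphoinositide 3-kinases, had a member of 17 and 13 tags in IP 2 alone.

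Among 26 PPARG partners and lipid genes 2 had overlapping members (7.69%, median 3' UTR 1439.5 nt). They were Soat1 and the fatty acid receptor Cd36, whose strongest members had 16 and 29 tags. Another 11 had a member in 1 list only, among them Lpl, lipoprotein lipase, with 46 tags, and Abcg1, a cholesterol exporter, with 24, both in IP 1. In all, 13 of the 26 had a member in at least 1 list, beside 1659 of the 7214 genes with a sense peak (23%). For 3' UTRs from 1000 nt to under 2000 that share was 26.0%. Among the lists of functions this looser count ran from 0 of 28 cytosolic ribosomal protein genes to 13 of 22 Rab GTPases.

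Alternative activation genes had 1 of 15 with overlapping members (6.67%, median 882 nt), Pdcd1lg2 with 5 and 14 tags. Igf1 (strongest members 22 and 28 tags), Tgm2 (16 and 19) and Stat6 (6 and 14), the transcription factor of interleukin 4 signalling, had members in both lists that did not overlap. Of 16 classical activation genes with a peak (median 707 nt) none had overlapping members, and Ifnar1 had the only member, with 9 tags in IP 1. Of mRNAs known for AU-rich 3' UTRs, 2 of 19 had overlapping members (10.5%, median 774 nt), Mcl1 and Zfp36, and Ccnd1, cyclin D1, had members of 23 and 22 tags that did not overlap.

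Described IGF2BP targets had 2 of 19 with overlapping members (10.5%, median 1388 nt): Foxk1, a forkhead factor, with 20 and 48 tags in 3 and 5 members, and Hk2, hexokinase 2, with 6 and 18. Cd44 had 47 tags in IP 1 and no member in IP 2, though its peaks held 542 tags there. Of 17 m6A writers, erasers and readers with a peak (median 1265 nt) none had overlapping members; Prrc2b (6 and 12) and the demethylase Alkbh5 (9 and 8) had members in each list at different places. In the remaining lists the counts were 1 of 11 Toll-like receptors and adaptors (Tollip, 15 and 14 tags, median 3' UTR 1067 nt), 1 of 16 glycolysis genes (Hk2, 744 nt), 1 of 25 ubiquitin enzymes (Usp7, 10 and 12 tags, 2483 nt) and 1 of 23 macrophage identity genes (Fcgr3, 12 and 12 tags, 882 nt). None of 12 integrins (1047.5 nt) or 15 antigen presentation genes (484 nt) had them. Cytosolic ribosomal protein genes had peaks in 28 genes and no member in either list, and their median 3' UTR had 259 nt. Nuclear genes of oxidative phosphorylation, with a median of 216 nt, had none of 20 with overlapping members.

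The labelled cell type was checked against its markers. Of the 30 genes of macrophage identity and receptors 23 had a peak in at least 1 list, beside 6899 of 21022 protein-coding genes with an annotated 3' UTR. Of the 23, 4 had a member, beside 1659 of the 7214 genes with a sense peak (23%). That count of members does not set the list apart. Of the 27 marker genes of T cells, B cells, neutrophils, fibroblasts and erythroid cells, 4 had a peak of any kind, and 2 of these had a member: Pax5 with 3 tags in IP 1 and Mpo with 4 tags in IP 2.

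Along the 3' UTR the peaks leaned towards the stop codon. The midpoint could be placed within 1 exon of a GENCODE transcript for 1259 members in IP 1 (98.1%) and 1618 in IP 2 (98.0%), all but 1 in each in the last exon. Its median position was 42.4% of the way from the stop codon to the 3' end in IP 1 and 44.4% in IP 2, at 969 nt and 1028.5 nt. The third of the 3' UTR nearest the stop codon held 37.97% of placed members in IP 1 (exact 95% interval 35.3 to 40.7) and 35.5% in IP 2 (33.1 to 37.9). If each peak could lie with equal chance anywhere in its own 3' UTR, that share would be 30.0% and 29.5%. The third nearest the 3' end held 24.0% and 26.2%, beside 29.9% and 29.5%.

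The first 200 nt held 6.27% of placed members in IP 1, beside 4.99% for even placement, and 4.76% in IP 2, beside 4.74%. The last 200 nt held 4.69% and 5.07% of placed members, beside 4.99% and 4.74% for even placement. The libraries were random-primed. Peaks that run past the annotated 3' end are not members, so these shares cannot show whether peaks pile up at the poly(A) end. Peaks with 3' UTR as their only region but a share under 1.0, the rest in no region, numbered 63 in IP 1 and 113 in IP 2. In 3' UTRs under 1000 nt the median midpoint was past the middle in both lists. It lay at 0.507 of the UTR for 115 members in IP 1 and at 0.529 for 174 in IP 2. The lean towards the stop codon was thus not seen in these short 3' UTRs. Their members had median lengths of 214 nt and 244.5 nt, and whether peak length bears on this was not tested. A member needs its whole length past the stop codon, so peaks that begin in the coding sequence are not counted in these shares.

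**Figure D4:**
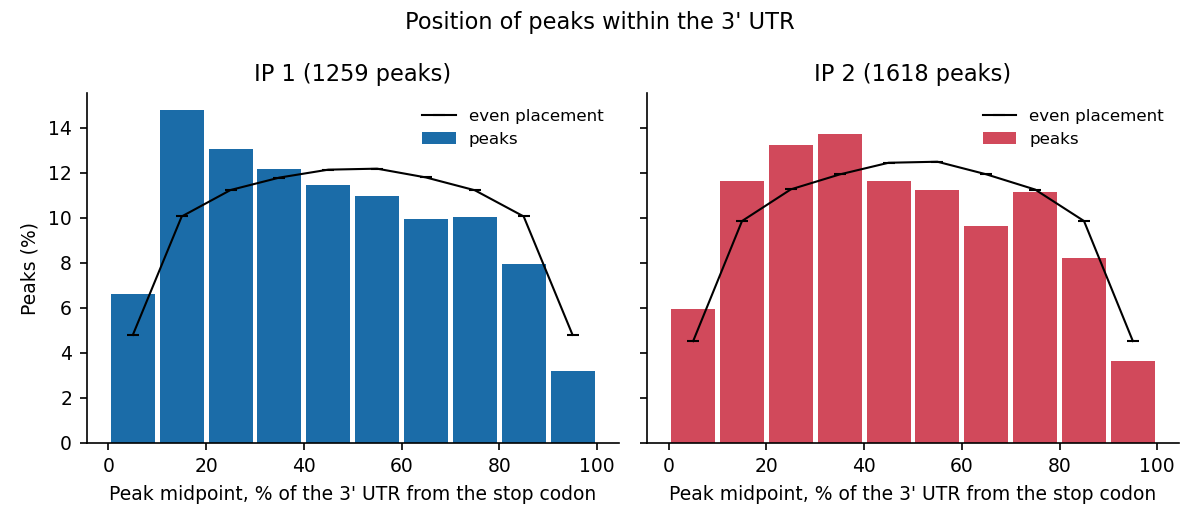
Share of placed members (y axis, %) by the position of their midpoint in steps of 10% of the 3' UTR from the stop codon to the 3' end (x axis), in IP 1 (left, 1259 peaks) and IP 2 (right, 1618 peaks); the black line is the share for peaks of the same lengths placed evenly in the same 3' UTRs. Bars stand above the line on the stop codon side, with 14.8% against 10.1% at 10 to 20% in IP 1, and below it from the middle onward.

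The sequence of the members differed in base content from the rest of the same 3' UTRs. Members had 48.2% G and C in IP 1 and 47.9% in IP 2, beside 44.2% and 43.9% in the stretches of the same 3' UTRs outside members. Most of the difference was in G, 25.8% and 25.6% beside 22.3% and 22.2%. Motifs were read on the transcript strand alone, and matches of different motifs could overlap. GGAC occurred in 744 of 1259 placed members in IP 1 (59.1%) and in 974 of 1618 in IP 2 (60.2%), or 3.60 and 3.48 times per kb, beside 2.92 and 2.83 per kb in the rest of the same 3' UTRs.

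The GGAC density followed the base content. The density that the base frequencies alone would give was 3.49 and 3.45 per kb in members, so the observed values were 1.03 and 1.01 times that; in the rest of the 3' UTRs the ratios were 1.03 and 1.02. In windows that reach 50 nt to either side of the summit GGAC stood in 30.7% and 29.4%, beside 24.1% of tiles of the same length cut from the 3' UTRs of all protein-coding genes. It did not rise steadily with tags: from the weakest to the strongest band the windows held it in 25.8%, 32.3%, 32.2% and 32.4% in IP 1 and in 30.7%, 26.3%, 32.6% and 28.7% in IP 2. TGGAC stood in 9.91% and 10.7% of windows, beside 8.27% of tiles. DRACH, the wider m6A consensus, is A, G or T, then A or G, then AC, then A, C or T. It stood in 83.2% and 85.7% of windows, beside 86.3% of tiles. Its density in members was 1.25 and 1.27 times what base content gives, beside 1.18 and 1.17 in the rest of the same 3' UTRs.

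Motifs rich in A and U were scarcer in members. CATH, the letters CAT followed by A, C or T, stood in 48.5% and 49.4% of windows, beside 69.6% of tiles. Its density in members was 8.04 and 8.57 per kb, or 0.726 and 0.768 of what base content gives, beside 0.905 and 0.912 in the rest of the same 3' UTRs. The AU-rich pentamer ATTTA stood in 6.71% and 7.998% of windows, beside 15.6% of tiles. The Pumilio site TGTANATA stood in 0.879% and 1.12%, beside 2.05%, and the poly(A) signal AATAAA in 3.20% and 2.67%, beside 7.28%. In the rest of the same 3' UTRs AATAAA stood in 5.68% and 5.51% of tiles. Its density was 2.31 and 2.09 times what base content gives in members, beside 2.53 and 2.34 in that rest. For ATTTA these ratios were 0.75 and 0.79, beside 0.95 and 0.95. Peaks that run past the annotated 3' end, near which the poly(A) signal lies, are not members, while the tiles reach that end. Whether this rule lowers the AATAAA shares of members was not tested.

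The scarcity of CATH was centred on the summit. In the 981 IP 1 and 1284 IP 2 members with 300 nt of 3' UTR on either side, CATH fell from 11.3 and 12.5 per kb in the outermost upstream step to 5.99 and 5.61 per kb in the step just before the summit, and was 10.8 and 11.1 per kb in the outermost downstream step. Over the same distance G went from 23.3% and 22.98% to 27.3% and 27.6% and back to 23.1% and 22.8%. The summit is the highest coverage of the same tags that define a member, so these profiles are a description.

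**Figure D5:**
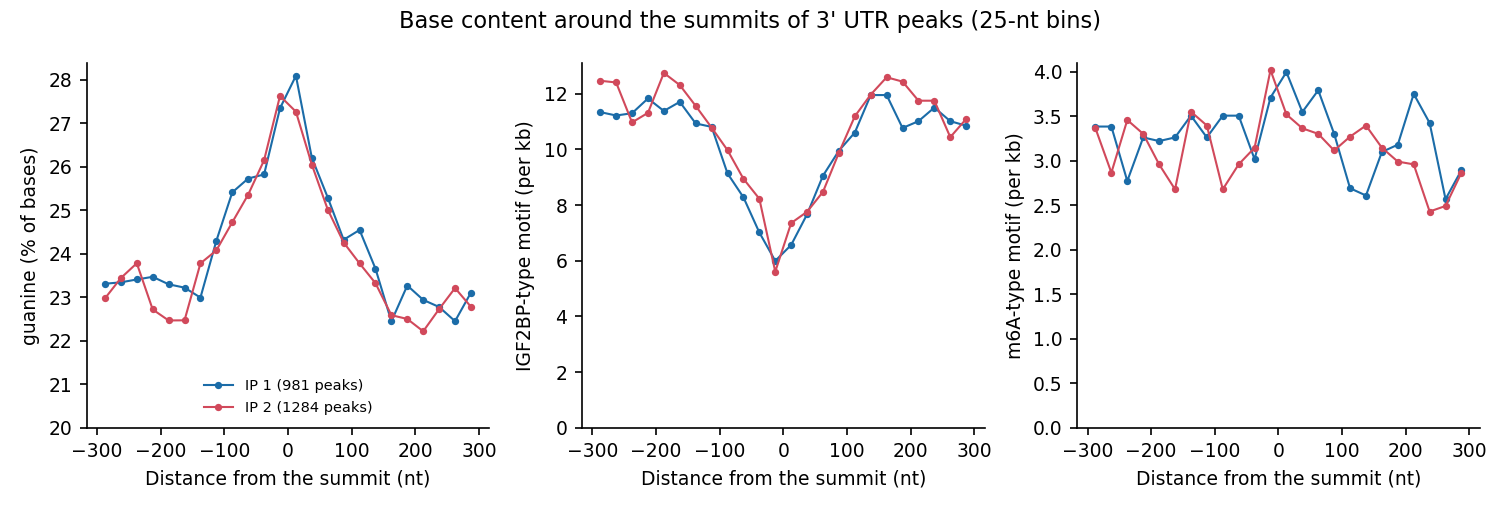
Guanine content (left, % of bases, axis from 20%), the CATH motif of IGF2BP family members (middle, per kb) and GGAC, the m6A core (right, per kb), in steps of 25 nt from 300 nt before to 300 nt after the summit (x axis), for 981 IP 1 members (blue) and 1284 IP 2 members (red). Guanine peaks at the summit, CATH dips to 5.99 and 5.61 per kb, and GGAC varies between steps with its highest values of 4.00 in IP 1 and 4.02 in IP 2 next to the summit.

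Other short words also differed near the summit. Within 25 nt of the summit, set against 150 to 300 nt away, CA was the scarcest of the 16 pairs of bases, at 0.789 of its far density in IP 1 and 0.776 in IP 2, and GG the most increased, at 1.31 and 1.33. CAT was at 0.620 and 0.621, TCA at 0.670 and 0.671 and ACA at 0.693 and 0.687, while GGA was at 1.40 and 1.39 and GAG at 1.46 and 1.40. Around the summits of 2872 and 3811 coding peaks CA was again the scarcest pair, at 0.805 and 0.793, with CAT at 0.715 and 0.713 and GGA at 1.29 and 1.28. Other words lay on opposite sides: CG was at 1.27 and 1.24 around 3' UTR summits and at 0.985 and 0.993 around coding summits, and AA at 0.870 and 0.880 against 1.09 and 1.09. Of the 16 pairs of bases, 13 in IP 1 and 12 in IP 2 lay on the same side of 1 in both regions; the difference between the regions was not tested.

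Sites of 5 microRNAs known from macrophages were sought as matches to seed bases 2 to 8. The mature sequences are from RefSeq (GRCm38.p6), with the seed in capitals.
let-7a-5p: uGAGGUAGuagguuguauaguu
miR-155-5p: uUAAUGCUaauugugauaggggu
miR-223-3p: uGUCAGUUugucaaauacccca
miR-146a-5p: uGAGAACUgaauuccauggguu
miR-21a-5p: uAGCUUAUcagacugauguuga
No seed is shared among them. The site of let-7a stood in 0.240% of IP 1 windows and 0.806% of IP 2 windows, beside 0.653% of tiles. For miR-155 the shares were 0.3997% and 0.310%, beside 0.590%, for miR-223 0.480% and 1.18%, beside 0.582%, for miR-146a 0.959% and 0.744%, beside 0.827%, and for miR-21a 0.240% and 0.620%, beside 0.511%. Each share rests on at most 19 windows, and for 4 of the 5 the lists lay on opposite sides of the tiles.

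Few members were ambiguous in their gene. An exon on the opposite strand overlapped 40 members in IP 1 (3.12%) and 58 in IP 2 (3.51%), and an exon of another gene on the same strand 20 and 28. The 31 nt at the summit also occurred in a transcript of another gene for 40 of 1257 members (3.18%) and 55 of 1617 (3.401%). Among the genes named above these were Pdxk, a Coro1c peak of 35 tags (Gm17122), a Tgm2 peak of 16 tags (Gm20412) and a Ccnd1 peak of 22 tags. In each of these the matched gene was also the gene with the opposite exon, so the match is not a further copy elsewhere. The gene of these tags rests on the strand given to the peak. For the other matches this was not counted.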

How the data were processed

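Peak lists of 2 IGF2BP2 immunoprecipitation libraries were used, 1 list for each; the 2 input libraries were not analysed here. The submitters' processing notes name bcl2fastq, TopHat2 and the genome build GRCm38. How peaks were called, at what threshold and whether against the inputs is not given in the sources used here. The authors deposited, per the file headers, a raw count of tags for every peak (lowest value 3), a maximum height (a coverage signal, the most tags stacked at 1 position), a length, a summit, region shares and a gene identifier. Without molecular identifiers, tags may include PCR copies.

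Members were peaks with 3' UTR as the only region and a share of 1.0. A peak counted as found again when a peak of the other list covered at least 1 nt of it on the same strand. Shares have exact (Clopper-Pearson) 95% intervals. Within each list, two-sided Fisher's exact tests set members against peaks wholly in coding sequence, with Benjamini-Hochberg adjustment over 4 tests; they cover counting error, not differences between cultures or animals. Positions and sequences came from transcripts of the mouse GENCODE release M21 on GRCm38. The 3' UTR started after the annotated stop codon, and the best-ranked (APPRIS) transcript that holds the peak within 1 exon was used. Even placement was computed over all positions a peak of that length could take in its 3' UTR. Scripts used Python 3.11.15, numpy 2.4.6, pandas 2.3.3, scipy 1.17.1 and statsmodels 0.14.6; the overlap search and the Fisher test were tested on simulated data.

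The members, the 26 gene lists and the tests were chosen with earlier results of these data known. Genes were named by rule: the 20 overlapping pairs highest by mean rank of tags, 1 for each gene; the 5 genes with most members, with ties; up to 4 genes of each list with a member in both lists, or otherwise the strongest; and Tsc1, Pparg and Igf2bp2. Other genes were named after their values were seen. The comparison of words near and far from the summit, the summit profiles and the search of summit sequences in other genes were chosen after seeing the data. Alternatives were a larger overlap, strand ignored, stronger peaks, the main region, partners of the same region class, maximum height, 20 tags, the summit as position, a longer 3' UTR and a fixed window.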

Additional observations from a re-analysis of the deposited data

How the results depend on the processing

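The share of 3' UTR peaks found again was 37.6% in IP 1 and 27.0% in IP 2. It was 23.5% and 17.6% with overlap of at least 50% of both peaks, 45.8% and 29.7% among peaks of 6 or more tags, 33.0% in IP 1 with partners of the same region class only, and 29.9% in IP 2 with the region covering most of the peak. The odds ratio of 3' UTR against coding peaks stayed below 1 in IP 1 except with partners of the same class, where it turned to 1.22; in IP 2 it became 0.705 with 50% overlap and turned to 1.24 with partners of the same class, each past the threshold that the main value of 0.911 missed. The odds ratio for 10 or more tags turned to 0.959 in IP 1 and 0.983 in IP 2 with maximum height; by construction height does not add up along a wide peak. GGAC was held by 30.7% and 29.4% of windows reaching 50 nt to either side of the summit and by 64.2% and 62.6% of peaks of 6 or more tags, against 59.1% and 60.2%; the window holds fewer bases. Genes with overlapping members numbered 336, and leaving out 1 list, which removes the need for overlap, gave 962 to 1187. The median position kept within its interval under each alternative. No paired analysis was possible because the input libraries that share the replicate numbers were not analysed here. Depth is unknown, so a 3' UTR without a peak is not shown to be unbound.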
